A study of Mus musculus with 8 samples.

Results

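The 2 RNA-sequencing libraries of L1L2_Alb iBECs, hepatoblasts taken towards biliary epithelial cells (BECs) in culture, were compared with the 2 libraries of L1L2_Alb iHPs, hepatoblasts of that genotype taken towards hepatocytes. These 4 of the 8 libraries of the series were chosen by their labels alone, as all libraries of those conditions, and 13234 of the 23467 genes of the table, those whose level over the 4 averaged 1 RPKM or more, were tested. RPKM divides the reads of a gene by gene length and library depth, so levels of different genes can be set side by side. The study asked how loss of the kinases LATS1 and LATS2 changes the differentiation of hepatoblasts, and this comparison asks what the hepatocyte and biliary culture conditions changed in cells labelled as lacking both.

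All 4 libraries came from hepatoblasts of E14.5 fetal livers of mice of a B6;129 mixed strain with the labelled genotype Lats1-/-;Lats2f/fl;Alb-cre, in which *Lats1* is lost in every cell and *Lats2* in cells in which the albumin promoter drives Cre, the hepatoblast lineage. The cells were grown on collagen. For iHPs they then received Oncostatin M at 12.5 ng/ml for 5 days per the labels, and for iBECs they were kept on Matrigel for 14 days. The methods of the study give a longer Oncostatin M treatment than the labels. The 2 control libraries shown for reference, 1 of iHPs and 1 of iBECs, are labelled wild type and had the same treatments. Oncostatin M, the substrate and the days in culture differed together between iHPs and iBECs, and their parts in any difference cannot be told apart. The hepatoblasts were isolated from digested livers after lysis of red cells, with no sorting step described, and the labels leave unsaid whether paired libraries share embryos, so every p-value measures the spread between these libraries, which may be technical. As RNA of whole cultures was measured, fewer cells of a type and less RNA per cell cannot be told apart.

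Hepatoblasts of the fetal liver give rise to hepatocytes, which make plasma proteins, bile acids and the enzymes of the urea cycle and of gluconeogenesis, and to BECs, which line the bile ducts and contain the keratins 7 and 19. LATS1 and LATS2 are kinases of the Hippo pathway that phosphorylate and restrain the transcriptional co-activators YAP and TAZ, which act with TEAD factors on genes such as *Ctgf* and *Cyr61*. Oncostatin M, a cytokine of the interleukin-6 family, acts through STAT3 and is used to mature fetal hepatocytes in culture, and STAT3 also drives the acute phase genes of the liver.

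RNA of the 2 deleted kinases was present in every library. *Lats1* was at 22.7 and 7.12 RPKM in iHP replicates 1 and 2 and at 9.69 and 9.91 RPKM in iBEC replicates 1 and 2, and the groups overlapped. *Lats2* was at 17.7 and 27.6 RPKM in iHPs and 10.9 and 12.4 RPKM in iBECs, a log2 difference of −0.88 (standard error 0.318, adjusted p = 0.193). Control libraries held 11.2 and 5.38 RPKM of *Lats1* and 10.1 and 6.90 RPKM of *Lats2* in iHP and iBEC. A value per gene does not separate reads of the deleted exons from reads of the others, and the genotype is given as labelled. The summed biliary markers sorted by the names of the cultures, through *Spp1* alone, and the summed hepatocyte markers did not. The summed level of *Hnf4a*, *Alb*, *Ttr*, *Apoa1* and *Afp* was 11650 and 9448 RPKM in iHPs and 11123 and 7794 RPKM in iBECs, and that of *Krt7*, *Krt19*, *Sox9*, *Epcam* and *Spp1* was 2860 and 3749 RPKM in iHPs and 6630 and 11711 RPKM in iBECs, of which *Spp1* made up most in iBECs. *Apoa1* made up most of the hepatocyte sum in iHPs. *Apoa1* and *Afp* had a lower mean in iBECs (log2 differences −1.05 and −0.96). *Hnf4a*, *Alb* and *Ttr* had a higher one (0.78, 2.97 and 1.15), and only *Alb* was called. *Krt7*, *Krt19*, *Sox9* and *Epcam* each had a lower mean in iBECs (log2 differences −1.56, −0.52, −0.70 and −0.66), and none of them was called. The names iHP and iBEC are used here for the culture conditions.

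Most genes that changed were higher in iBECs. Of 13234 genes, 412 (3.11%) were higher and 61 (0.461%) lower in iBECs at an adjusted p under 0.05 from limma, 473 in all. For none of the 473 did the libraries of the groups overlap, but these genes were chosen on the same values, so this adds no support. The calls higher in iBECs ranged from 1.35 to 6.35 on the log2(RPKM + 1) scale, a scale that understates the change of low genes, and the calls lower in iBECs from −3.66 to −1.36. Genes called higher were low in iHPs, with a median level of 2.41 RPKM there against 15.3 RPKM in iBECs, and 128 of the 412 had a mean under 1 RPKM in iHPs. These 128 passed the filter on the mean only through their iBEC values. All 412 were chosen on the levels compared here, so these figures are a description. Genes called lower had a median of 46.3 RPKM in iHPs and 13.5 RPKM in iBECs. Over all tested genes the median difference was −0.02, with a median absolute difference of 0.36 between groups against 0.43 between the iHP libraries and 0.25 between the iBEC libraries. An exact permutation test of 2 against 2 libraries cannot go below p = 0.333, so the calls rest on the spread that limma shares across genes, with 2 residual degrees of freedom. Left out in turn, iHP replicate 1, iHP replicate 2, iBEC replicate 1 and iBEC replicate 2 took the number of calls to 70, 0, 101 and 270, of which 61, 0, 81 and 193 were among the 473, and with no filter on low values 0 of 19326 genes were called, while none of the 473 changed direction in any of these fits. The calls given for single genes are those of the fit with all 4 libraries.

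**Figure D1:**
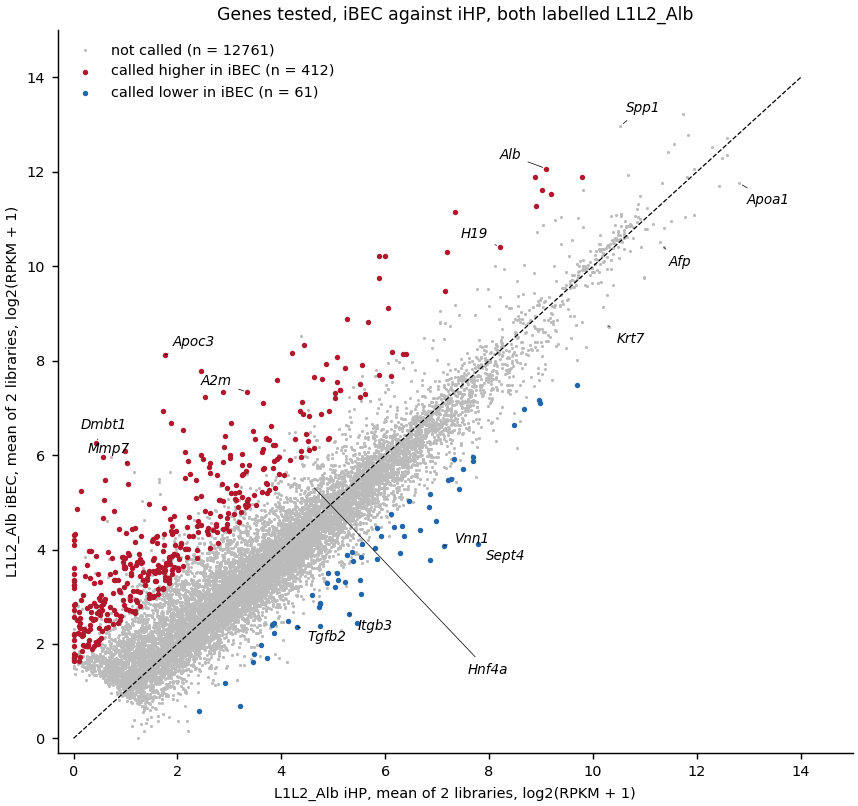
Mean level of each tested gene in the 2 L1L2_Alb iHP libraries (horizontal) and the 2 L1L2_Alb iBEC libraries (vertical), both in log2(RPKM + 1), with the dashed line at equal levels. The 412 genes called higher in iBECs (red) lie mostly at low iHP levels, whereas the 61 called lower (blue) lie along the lower edge, and *Apoa1*, *Afp* and *Krt7* are not called.

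Plasma proteins made by hepatocytes were the list with the most calls. Of 63 tested genes of the 68 listed, 28 were called higher in iBECs and 0 lower, 44.4% against the 3.11% of all genes, with a median difference of 1.71 against −0.02. In the control libraries the median was 0.83, against −0.24 over all genes. Control iBEC was higher for 51 of the 63, against 3994 of all 13234. This and the other lists were chosen with earlier results of these data known, so their shares are a description. Calls fell to 11, 0, 16 and 19 without iHP replicate 1, iHP replicate 2, iBEC replicate 1 and iBEC replicate 2. *Apoc3*, an inhibitor of lipoprotein lipase, was at 2.48 and 2.33 RPKM in iHPs and 408 and 189 RPKM in iBECs, the largest increase of any gene called (log2 difference 6.35, standard error 0.395, adjusted p = 0.00234). *Apoa4*, another apolipoprotein, was at 0.55 and 0.48 RPKM in iHPs and 48.9 and 38.9 RPKM in iBECs (4.88, adjusted p = 0.00234). Both were thus close to absent in L1L2_Alb iHPs, where control iHP held 167 RPKM of *Apoc3* and 8.38 RPKM of *Apoa4*. *Alb*, the albumin gene and the source of the Cre promoter, was at 568 and 526 RPKM in iHPs and at 5499 and 3357 RPKM in iBECs, 8.09-fold higher by the means (2.97, standard error 0.434, adjusted p = 0.0196). *A2m*, a protease inhibitor, was at 9.87 and 8.49 RPKM against 107 and 239 RPKM (3.99, adjusted p = 0.0079). The increases of *Apof* (3.67), *Cpb2*, a carboxypeptidase that restrains clot lysis (3.64), and *Serpinc1*, antithrombin (3.28), followed, and the coagulation factors *F7*, *F9*, *F10* and *F12* were all among the 28. *Serpinc1* and the 4 factors were singled out after their values were seen.

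The apolipoprotein cluster on chromosome 9 was called only in part. *Apoa1*, the main protein of high-density lipoprotein, was among the most abundant RNAs of all libraries, and was at 8351 and 6225 RPKM in iHPs and 4170 and 2889 RPKM in iBECs, in the opposite direction to its neighbours without passing the test (−1.05, standard error 0.514, adjusted p = 0.328). Next to it, *Apoc3* and *Apoa4* were called higher, as was *Apoa5*, at 3.44 and 1.50 RPKM in iHPs and 28.5 and 28.7 RPKM in iBECs (3.15, adjusted p = 0.00976). *Apoa2*, on another chromosome, was also called higher, at 31.3 and 25.0 against 288 and 203 RPKM (3.07, adjusted p = 0.0080). In the control libraries *Apoa1* differed by 0.05, *Apoc3* by 0.66 and *Apoa4* by 3.41 between iBEC and iHP. *Apoa5* and *Apoa2* were singled out after their values were seen.

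The albumin locus held a like pair. *Afp*, the fetal albumin-family gene beside *Alb*, was at 2673 and 2603 RPKM in iHPs and 1313 and 1391 RPKM in iBECs, with no overlap but without a call (−0.96, adjusted p = 0.258). *Alb* and *Afp* on the one hand and *Apoa4* and *Apoa1* on the other differ in direction. The 300 bases around their starts are shown, from RefSeq on GRCm38.p6 and the plus strand, with 250 bases before the start and 50 after. Capitals mark matches, on either strand, to the letters searched: GTTAATNAT for HNF1, CAAAGTCCA for HNF4, GGAATG for TEAD, TGANTCA for AP-1 and CCAAT for NF-Y.
Alb, chr5:90460620-90460919: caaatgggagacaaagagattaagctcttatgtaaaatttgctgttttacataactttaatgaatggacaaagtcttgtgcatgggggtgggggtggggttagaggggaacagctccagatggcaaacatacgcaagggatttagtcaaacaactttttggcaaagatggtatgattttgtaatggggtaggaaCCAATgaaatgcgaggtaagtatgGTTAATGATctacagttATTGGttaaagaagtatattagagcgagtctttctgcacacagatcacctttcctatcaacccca
Afp, chr5:90490464-90490763: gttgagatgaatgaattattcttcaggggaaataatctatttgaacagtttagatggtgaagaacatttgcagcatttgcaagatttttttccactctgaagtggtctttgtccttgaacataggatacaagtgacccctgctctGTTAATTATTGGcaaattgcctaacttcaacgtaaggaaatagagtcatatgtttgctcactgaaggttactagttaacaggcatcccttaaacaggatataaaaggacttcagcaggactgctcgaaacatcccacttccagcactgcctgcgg
Apoa4, chr9:46240594-46240893: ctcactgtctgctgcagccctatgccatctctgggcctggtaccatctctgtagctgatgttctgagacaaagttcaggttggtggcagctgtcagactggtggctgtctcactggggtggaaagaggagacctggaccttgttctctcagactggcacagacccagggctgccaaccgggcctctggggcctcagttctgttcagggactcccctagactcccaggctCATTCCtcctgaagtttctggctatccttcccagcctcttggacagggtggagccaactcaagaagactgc
Apoa1, chr9:46228380-46228679: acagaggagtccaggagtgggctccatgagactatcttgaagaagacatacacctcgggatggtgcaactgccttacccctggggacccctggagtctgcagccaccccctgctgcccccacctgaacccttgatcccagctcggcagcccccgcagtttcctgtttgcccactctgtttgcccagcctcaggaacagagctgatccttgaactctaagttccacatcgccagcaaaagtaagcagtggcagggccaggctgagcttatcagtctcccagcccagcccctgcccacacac
The window of *Alb* held an HNF1 match that begins 32 bases before the start between 2 NF-Y matches, and that of *Afp* an HNF1 match 105 bases before the start that shares bases with an NF-Y match. *Apoa4* held 1 TEAD match 21 bases before the start, and *Apoa1* none of the 5. The *Apoa4* window was picked, among those of the largest increases, for holding TEAD or AP-1 letters. Its match was thus fixed by the choice and gives no contrast with *Apoa1*. Of 32851 windows of this length in the mouse table, 0.801% held the HNF1 letters, 0.475% the HNF4 letters, 14.7% the TEAD letters, 7.81% the AP-1 letters and 37.4% the NF-Y letters. A match is a description of the letters and not a binding site. A comparison of motif shares between called and other genes was void, since windows were held for only 71.4% of the genes called higher and 77.3% of all genes tested.

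Enzymes of liver metabolism followed the plasma proteins. Of 44 tested genes of 55 listed, 17 were called higher and 1, *Ugt2b34*, a glucuronosyltransferase named after its value was seen, lower in iBECs (38.6% and 2.27%, median 1.50), and the calls higher fell to 3, 0, 7 and 13 without iHP replicate 1, iHP replicate 2, iBEC replicate 1 and iBEC replicate 2. *Tat*, tyrosine aminotransferase, was at 0.14 and 0.08 RPKM in iHPs, 6 and 4 reads, and at 68.7 and 19.4 RPKM in iBECs (log2 difference 5.09, standard error 0.548, adjusted p = 0.0092). *Uox*, urate oxidase, was at 1.59 and 0.15 RPKM against 33.6 and 22.2 RPKM (4.04, adjusted p = 0.00945). The alcohol dehydrogenase *Adh1* was at 5.49 and 7.70 RPKM in iHPs and 91.0 and 76.8 RPKM in iBECs (3.49, adjusted p = 0.00532). *Cps1*, the entry enzyme of the urea cycle, was at 21.0 and 6.24 RPKM against 233 and 80.4 RPKM, with the iBEC libraries apart by 1.52 on the log2(RPKM + 1) scale (3.45, adjusted p = 0.038). *Fbp1*, a gluconeogenic phosphatase, had the higher iBEC value in replicate 2, at 33.3 and 92.9 RPKM, against 6.86 and 3.87 RPKM in iHPs (3.20, adjusted p = 0.0238). *Hsd11b1*, which regenerates active glucocorticoid and belongs to no list, was among the 15 largest increases, at 1.42 and 0.66 RPKM in iHPs and 173 and 25.2 RPKM in iBECs (5.08, adjusted p = 0.0232).

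Genes of bile acid synthesis and transport had a higher mean in iBECs for 13 of 14 tested members of 23 listed, against 6436 of all 13234 genes tested, and 4 were called higher (28.6%, median 1.33) and 0 lower. Of the 4 called, *Slc27a5*, *Slc10a1* and *Slc51b* had a mean under 1 RPKM in iHPs. They passed the filter on the mean only through their iBEC values, so both counts are a description. With a mean of at least 5 RPKM required, 0 of 8 tested members were called higher. The summed level of the 23 overlapped between the groups, at 197 and 183 RPKM in iHPs and 234 and 180 RPKM in iBECs. *Slc27a5*, the ligase that activates bile acids, was at 0.56 and 0.12 RPKM in iHPs and 11.6 and 6.71 RPKM in iBECs (2.90, adjusted p = 0.0148). *Slc10a1*, the sodium-dependent importer of bile acids, was at 0.27 and 0.48 RPKM against 5.94 and 4.68 RPKM (2.19, adjusted p = 0.0191). *Abcb4*, the phospholipid exporter of the canaliculus, was at 2.53 and 2.56 against 11.5 and 7.69 RPKM (1.56, adjusted p = 0.0484). *Slc51b*, part of the basolateral exporter, had 0 reads in both iHP libraries and 22 and 29 reads in the iBEC libraries, at least 6.81-fold higher against a floor of 3 reads per library. *Cyp7a1*, the rate-limiting enzyme of bile acid synthesis, was too low to test, with 2 and 0 reads in iHPs and 16 and 3 reads in iBECs. *Slc27a5* and *Slc10a1* kept their call without iBEC replicate 2, and 0 of the 4 were called without iHP replicate 1, iHP replicate 2 or iBEC replicate 1.

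Of the 43 genes of Oncostatin M, STAT3 and the acute phase, all tested, 10 were called higher in iBECs and 0 lower (23.3%, median 1.00, in the control libraries 0.80), with 3, 0, 9 and 7 calls without iHP replicate 1, iHP replicate 2, iBEC replicate 1 and iBEC replicate 2. The calls were secreted acute phase proteins such as *Orm1*, at 82.8 and 40.0 RPKM in iHPs and 707 and 1996 RPKM in iBECs (4.34, adjusted p = 0.0153), and the serine protease inhibitor *Serpina3n*, at 180 and 145 against 2637 and 1977 RPKM (3.82, adjusted p = 0.0065). *Orm2*, *Serpina3k* and *Serpina3m* were called as well (3.95, 4.22 and 3.11), but these families have near-identical copies whose reads could be split between them, and their single values are uncertain. *Osmr*, the receptor of Oncostatin M, was at 45.4 and 33.2 RPKM in iHPs and 58.5 and 37.1 RPKM in iBECs (0.26, adjusted p = 0.748). *Socs3*, a feedback inhibitor induced by STAT3, was at 110 and 91.3 against 84.4 and 108 RPKM (−0.07, adjusted p = 0.927). For *Osmr* and *Socs3* the groups overlapped, and Oncostatin M is labelled only for iHPs.

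Hepatic transcription factors and fetal genes held few calls. Of 26 tested factors 21 had a higher mean in iBECs (median 0.84), but only *Rxra*, the retinoid X receptor that partners liver nuclear receptors, was called, at 7.30 and 9.47 RPKM in iHPs and 26.1 and 27.2 RPKM in iBECs (1.57, standard error 0.286, adjusted p = 0.036). This 1 call higher was 3.85% of the list, near the 3.11% of all genes. *Hnf4a*, the nuclear receptor that specifies hepatocytes, was at 23.7 and 22.4 RPKM in iHPs and 35.4 and 45.6 RPKM in iBECs, with no overlap and no call (0.78, adjusted p = 0.196), and control libraries held 64.3 and 99.5 RPKM. *Cebpa* behaved likewise, with iBECs at 19.2 and 25.1 RPKM above both iHP libraries (0.84, adjusted p = 0.178), while *Foxa2*, a pioneer factor of the endoderm, was at 26.8 and 36.0 RPKM in iHPs and 13.1 and 19.4 RPKM in iBECs (−0.92, adjusted p = 0.179). Of 13 tested fetal liver genes 10 had a lower mean in iBECs (median −0.46). Yet the 2 that passed the test, the imprinted genes *H19* and *Dlk1*, were called higher (15.4%, against 3.11% of all genes). *H19*, a non-coding RNA, was at 262 and 330 RPKM against 1060 and 1735 RPKM (2.20, adjusted p = 0.0357), and *Dlk1* at 1.00 and 1.19 against 6.40 and 4.86 RPKM (1.65, adjusted p = 0.039). With any single library left out, *Rxra*, *H19* and *Dlk1* all lost their call.

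**Figure D2:**
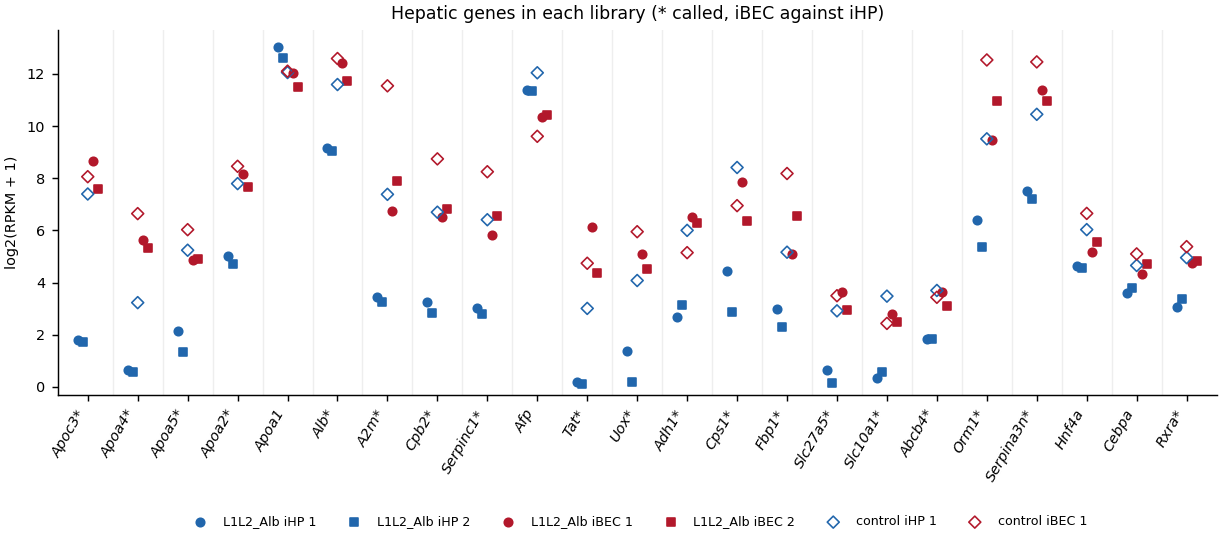
Level of 23 hepatic genes in log2(RPKM + 1) in each L1L2_Alb iHP library (blue) and iBEC library (red), filled circles for replicate 1 and squares for replicate 2, with the 1 control library of each condition as open diamonds. Called genes carry an asterisk, and in *Apoc3*, *Alb* and *Adh1* the L1L2_Alb iHP libraries lie below the other 4, whereas *Apoa1* and *Afp* lie higher in iHPs.

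The keratins of simple epithelia had lower values in iBECs than in iHPs, and none passed the test. *Krt7* was at 1361 and 1166 RPKM in iHPs and 319 and 568 RPKM in iBECs (−1.56, standard error 0.414, adjusted p = 0.0953). *Krt19* was at 377 and 493 RPKM against 254 and 355 RPKM (−0.52, adjusted p = 0.492). For *Krt8* and *Krt18*, which form the filament pair of hepatocytes and BECs alike, the differences were −1.22 (adjusted p = 0.209) and −1.22 (adjusted p = 0.178). In none of these 4 genes did the groups overlap, and the control libraries differed in the same direction, by −2.52 for *Krt7* and −1.73 for *Krt8*. *Epcam*, a surface marker of BECs and hepatoblasts, was at 35.9 and 39.2 RPKM in iHPs and 25.9 and 21.1 RPKM in iBECs (−0.66, adjusted p = 0.259).

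Other biliary genes were called in iBECs. Of 32 tested genes of the 39 in the list of simple epithelial and biliary genes 5 were called higher and 1 lower (15.6% and 3.13%, median 0.22). *Dmbt1*, a secreted scavenger receptor of mucosae and bile ducts, was at 0.58 and 0.16 RPKM in iHPs and 58.8 and 96.4 RPKM in iBECs (5.82, standard error 0.355, adjusted p = 0.00234). *Aqp1*, the water channel of cholangiocytes, was at 0.71 and 0.32 against 39.4 and 25.8 RPKM (4.45, adjusted p = 0.00417). Both had almost no RNA in iHPs and were also higher in control iBEC than in control iHP, by 4.60 and 3.02. *Muc1*, a membrane mucin, was at 1.53 and 0.55 against 12.9 and 13.4 RPKM (2.84, adjusted p = 0.0122), *Prom1*, which encodes CD133, at 1.16 and 1.17 against 10.1 and 10.5 RPKM (2.38, adjusted p = 0.0126), and *Elf3*, an epithelial ETS factor, at 2.70 and 1.29 against 12.3 and 13.1 RPKM (2.24, adjusted p = 0.0223). The call lower, named after its value was seen, was *Cdh6*, a cadherin (−1.63). *Spp1*, osteopontin, was at 1068 and 2045 RPKM in iHPs and at 6027 and 10760 RPKM in iBECs and did not pass the test (2.45, adjusted p = 0.0638). The 5 calls higher became 4, 0, 3 and 4 without iHP replicate 1, iHP replicate 2, iBEC replicate 1 and iBEC replicate 2.

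Epithelial genes outside the bile duct lists split as well. Of 30 tested junction genes, *Cldn3* and *Cldn14*, claudins of tight junctions, were called higher (1.73 and 1.72) and the desmosomal cadherin *Dsg2* lower, at 61.0 and 83.6 RPKM in iHPs and 17.9 and 25.5 RPKM in iBECs (−1.69, adjusted p = 0.0388), that is 6.67% and 3.33%, with a list median of −0.26. With any single library left out 0 junction genes were called, and under quantile normalization 0 were called higher and 1 lower. Of 17 tested genes of stratified and mucosal epithelia of 35 listed, *Ly6d* was at 20.6 RPKM in each iHP library and 261 and 398 RPKM in iBECs (3.90, adjusted p = 0.00493), and *S100a14* was called higher too (2.61), whereas *Sfn*, stratifin, was at 31.6 and 31.5 against 6.59 and 10.3 RPKM (−1.81, adjusted p = 0.0303). Of these 17 genes, 7 had a higher mean in iBECs. The calls were 2 higher and 1 lower, 11.8% and 5.88% against 3.11% and 0.461% of all genes. *Mt4*, a metallothionein of squamous epithelia, was at 15.5 and 2.28 against 149 and 172 RPKM (4.45, adjusted p = 0.0218). *Prap1*, a secreted protein of gut and uterine epithelium, had 1 and 0 reads in iHPs and 402 and 469 reads in iBECs, that is 25.0 and 31.6 RPKM (adjusted p = 0.00234), and only 8 reads and 1 read in control iHP and iBEC. *Prl8a2*, of the placental prolactin family, was at 1.07 and 0.05 RPKM in iHPs and at 93.0 and 40.1 RPKM in iBECs (5.40, adjusted p = 0.00579).

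Matrix metalloprotease 7, matrilysin, is an epithelial protease, and *Mmp7* was at 1.30 and 0.80 RPKM in iHPs and at 48.4 and 65.0 RPKM in iBECs (4.81, standard error 0.313, adjusted p = 0.00234), against 2.40 and 4.28 RPKM in control iHP and iBEC. Of its 2 windows, for 2 starts, the first is shown because it held the AP-1 letters (capitals, TGANTCA) 63 bases before the start, beside 2 matches to CCAAT. The other, chr9:7692091-7692390, held 1 match to CCAAT and 0 to the AP-1 letters.
Mmp7, chr9:7691840-7692139, plus strand, RefSeq on GRCm38.p6: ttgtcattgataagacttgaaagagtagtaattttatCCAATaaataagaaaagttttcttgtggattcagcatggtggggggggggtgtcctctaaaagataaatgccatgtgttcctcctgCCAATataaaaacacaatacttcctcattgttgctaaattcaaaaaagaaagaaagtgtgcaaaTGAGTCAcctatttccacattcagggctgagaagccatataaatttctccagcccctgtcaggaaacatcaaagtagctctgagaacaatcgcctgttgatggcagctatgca
Of 29 tested matrix proteases and inhibitors, *Mmp7*, *Ctsk*, *Mmp9* and *Timp4* were called higher and 0 lower (13.8%, median 0.95), and without iHP replicate 1, iHP replicate 2, iBEC replicate 1 and iBEC replicate 2 there were 1, 0, 2 and 6 calls. *Ctsk*, cathepsin K, was at 3.99 and 5.00 against 107 and 36.8 RPKM (3.55, adjusted p = 0.0163), and *Mmp9* at 8.54 and 8.46 against 41.0 and 71.2 RPKM (2.54, adjusted p = 0.0153). *Timp4*, an inhibitor of these proteases, had 0 reads in both iHP libraries and was at 2.76 and 1.66 RPKM in iBECs, at least 20.6-fold higher against a floor of 3 reads per library.

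The genes lower in iBECs were led by *Sept4*, a septin gene that was also abundant in the undifferentiated L1L2_Alb hepatoblasts (iHB, 1 library). *Sept4* was at 199 and 243 RPKM in iHPs and 13.9 and 19.5 RPKM in iBECs, 13.2-fold lower by the means (−3.66, standard error 0.305, adjusted p = 0.00513), and at 458 RPKM in L1L2_Alb iHB. *Ms4a4b*, a membrane protein gene, was at 118 and 113 against 9.18 and 17.3 RPKM (−3.09, adjusted p = 0.00976), and *Vnn1*, a pantetheinase, at 143 and 137 against 10.7 and 23.6 RPKM (−3.05, adjusted p = 0.0145). For all 3 the iHP libraries lay close together. *Itgb3*, integrin beta 3, was at 21.7 and 68.6 RPKM in iHPs and 5.11 and 5.37 RPKM in iBECs (−2.67, adjusted p = 0.0388). *Wnt7a*, a Wnt ligand, was at 47.5 and 41.8 against 6.48 and 12.9 RPKM (−2.16, adjusted p = 0.028), and *Ager*, the receptor of advanced glycation end products, at 62.7 and 95.9 against 10.8 and 18.5 RPKM (−2.37, adjusted p = 0.0229). The 15 largest decreases also held *Akr1c14*, *Zg16*, *Tmem130*, *Ccl17*, *Fam107a*, *2010109I03Rik*, *Gsto1*, *Gipc2* and *Rhpn2*, between −3.01 and −2.09. L1L2_Alb iHB was nearer to the iHPs than to the iBECs for 54 of the 61 genes called lower and for 334 of the 412 called higher, against 7909 of all 13234.

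YAP-related genes mostly had lower values in iBECs, with few calls. Of 31 tested YAP targets of 33 listed 23 had a lower mean (median −0.56, in the control libraries −0.72), 1 of them called lower (3.23%), and 2 were called higher (6.45%). *Ctgf* was at 1183 and 1168 RPKM in iHPs and 412 and 771 RPKM in iBECs (−1.06, adjusted p = 0.237), and *Cyr61* at 470 and 495 against 481 and 349 RPKM (−0.23, adjusted p = 0.779). The calls higher were *Areg*, amphiregulin (1.77, adjusted p = 0.0406), and *Fgf1* (1.73, adjusted p = 0.0388). The call lower was *Tgfb2*, a TGF-beta ligand, at 17.6 and 20.1 RPKM in iHPs and 4.39 and 3.93 RPKM in iBECs (−1.94, standard error 0.285, adjusted p = 0.0196). *Tgfb2* was also the only call among 34 genes of the TGF-beta pathway (2.94%, median −0.21), while *Tgfb1* was at 8.26 and 13.3 against 17.6 and 19.3 RPKM (0.75, adjusted p = 0.264) and *Tgfb3* at 3.99 and 8.94 against 12.9 and 10.5 RPKM (0.84, adjusted p = 0.304). Of 26 tested Hippo components 21 had a lower mean (median −0.64), and 1 was called lower (3.85%, against 0.461% of all genes). It was *Amot*, which binds YAP at junctions, at 35.7 and 30.9 RPKM in iHPs and 8.57 and 10.1 RPKM in iBECs (−1.73, adjusted p = 0.0255). *Yap1* and *Wwtr1*, which encodes TAZ, differed by −0.51 (adjusted p = 0.367) and −0.67 (adjusted p = 0.259). With any single library left out, *Tgfb2*, *Areg*, *Fgf1* and *Amot* all lost their call.

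Receptor ligands of the EGF and Notch families were mixed. Of 21 tested genes of the EGF family and its receptors the ligands *Btc*, *Nrg4* and *Areg* were called higher (2.26, 1.80 and 1.77), 14.3% of the list. The ligand *Hbegf* was called lower, at 93.6 and 144 RPKM in iHPs and 38.1 and 32.4 RPKM in iBECs (−1.69, adjusted p = 0.0388), as was *Met*, the receptor of hepatocyte growth factor, at 20.4 and 26.4 against 5.99 and 8.54 RPKM (−1.57, adjusted p = 0.0444), 9.52% of the list. The calls higher became 0, 0, 0 and 1 without iHP replicate 1, iHP replicate 2, iBEC replicate 1 and iBEC replicate 2, and the calls lower 0 in each. Of 22 tested Notch genes 0 were called by limma, 6 having an unadjusted p under 0.05, against 2512 of all 13234 genes tested (list median 0.10). The Notch ligands *Jag1* and *Jag2* went opposite ways without passing the test, *Jag1* at 10.4 and 15.9 against 4.40 and 4.30 RPKM (−1.38, adjusted p = 0.0656) and *Jag2* at 0.60 and 0.66 against 3.16 and 2.79 RPKM (1.29, adjusted p = 0.0718). *Hes1*, a Notch target, differed by 0.36 (adjusted p = 0.566).

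**Figure D3:**
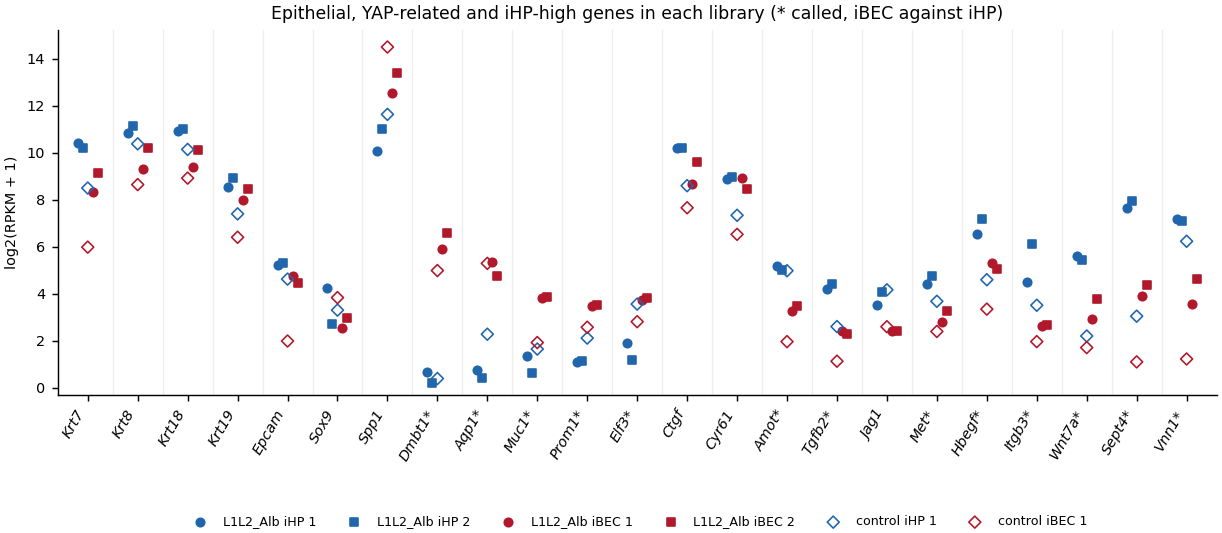
Level of 23 epithelial, YAP-related and iHP-high genes in log2(RPKM + 1) in each L1L2_Alb iHP library (blue) and iBEC library (red), filled circles for replicate 1 and squares for replicate 2, with the control libraries as open diamonds and called genes with an asterisk. *Dmbt1*, *Aqp1*, *Muc1* and *Prom1* lie higher in iBECs, *Sept4*, *Vnn1*, *Tgfb2* and *Amot* lower, and the keratins lower without a call.

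Matrix genes of fibroblasts had higher values in iBECs, and most of them the highest in iBEC replicate 1, with few calls. Of 33 tested genes of collagens and fibroblast matrix 32 had a higher mean in iBECs (median 1.15) and 5 were called (15.2%), none lower, whereas the control libraries had a median of 0.02. *Lum*, lumican, was at 1.83 and 3.78 RPKM in iHPs and at 259 and 39.8 RPKM in iBECs (4.81, standard error 0.778, adjusted p = 0.0255). *Dcn*, decorin, was at 3.11 and 7.10 against 309 and 71.4 RPKM (4.70, adjusted p = 0.018). In both, replicate 1 was the higher iBEC library, as it was in 29 of the 33 genes, by a median of 0.98. *Mgp* and *Sparcl1*, a matrix inhibitor of calcification and a matricellular protein, were at 426 and 114 RPKM and at 302 and 47.8 RPKM in iBECs, and at no more than 6.70 RPKM in iHPs (5.34, adjusted p = 0.0104, and 5.20, adjusted p = 0.0198). *Col1a1* was at 288 and 483 against 1130 and 606 RPKM (1.15, adjusted p = 0.229). Of 21 tested mesenchymal and stellate cell markers *Thy1* (3.36) and *Cdh11* (1.45) were called (9.52%), and *Pdgfra* (1.59, adjusted p = 0.0818), *Pdgfrb* (1.62, adjusted p = 0.0613), *Des* (1.48, adjusted p = 0.139) and *Acta2* (−0.21, adjusted p = 0.86) were not. The summed level of *Pdgfra*, *Pdgfrb*, *Des*, *Acta2* and *Col1a1* was 382 and 659 RPKM in iHPs and 1358 and 712 RPKM in iBECs, none of them at 0. *Col1a1*, which was not called, made up most of this sum in each library. Over all 30 listed markers the sum went the other way, at 4857 and 4274 RPKM in iHPs and 2718 and 3985 RPKM in iBECs. The matrix calls became 0, 0, 2 and 6 without iHP replicate 1, iHP replicate 2, iBEC replicate 1 and iBEC replicate 2.

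Macrophage genes mostly had higher values in iBECs, with few calls. Of 21 tested macrophage and myeloid markers of 26 listed 20 had a higher mean (median 1.65, in the control libraries −0.01), and *Mrc1*, *Emr1* and *Laptm5* were called (14.3%). *Emr1*, which encodes F4/80, was at 13.2 and 16.1 RPKM in iHPs and 60.2 and 61.9 RPKM in iBECs (1.99, standard error 0.275, adjusted p = 0.0167). *Stab1*, a scavenger receptor of macrophages and sinusoidal endothelium kept in the endothelial list, was at 18.6 and 20.7 against 119 and 125 RPKM (2.58, adjusted p = 0.00868). The summed level of *Ptprc*, *Csf1r*, *Cd68*, *Emr1* and *C1qa* was 232 and 391 RPKM in iHPs and 815 and 929 RPKM in iBECs, with none at 0. The count moved with the scaling, from 3 to 11 under quantile normalization and 8 under upper-quartile scaling, and with any single library left out 0 of the 21 were called higher. Without iBEC replicate 2 the scavenger receptor *Marco*, named after its values were seen, was called lower, at 191 and 128 RPKM in iHPs and 24.0 and 406 RPKM in iBEC replicates 1 and 2. The part of fibroblasts and macrophages in the other differences was not tested.

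Neutrophil RNA differed more between replicates than between conditions. *Ngp*, a granule protein gene, was at 38.4 and 0.57 RPKM in iHPs and at 4.83 and 195 RPKM in iBECs (2.10, adjusted p = 0.608), and *Mpo*, *Elane* and *Ngp* together at 44.7 and 0.73 RPKM in iHPs and 6.80 and 250 RPKM in iBECs, with *Elane* at 0 in iHP replicate 2. Of the 11 tested genes of the list 0 were called by limma, 2 having an unadjusted p under 0.05, against 2512 of all 13234 genes tested. In all 11, iBEC replicate 1 was below iBEC replicate 2, by a median of −3.71, against a median of 1.80 between iBECs and iHPs. Erythroid RNA was scarce, with *Hba-a1*, *Hbb-b1* and *Alas2* together at 6.68 and 15.5 RPKM in iHPs and 1.57 and 3.09 RPKM in iBECs. *Pecam1*, *Cdh5* and *Kdr*, markers of endothelium, summed to between 1.40 and 3.41 RPKM in the 4 libraries. *Cd3e* was at 0 in all 4 and *Cd79a* at or under 0.17 RPKM, whereas *Pf4*, of platelets and megakaryocytes, was at 23.1 and 58.3 RPKM in iHPs and 51.3 and 188 RPKM in iBECs. The mesothelial markers *Msln*, *Upk3b* and *Wt1* summed to 3279 and 1936 RPKM in iHPs and 1054 and 2072 RPKM in iBECs, nearly all of it *Msln*, and the groups overlapped. The part of these cells in the differences was not tested.

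**Figure D4:**
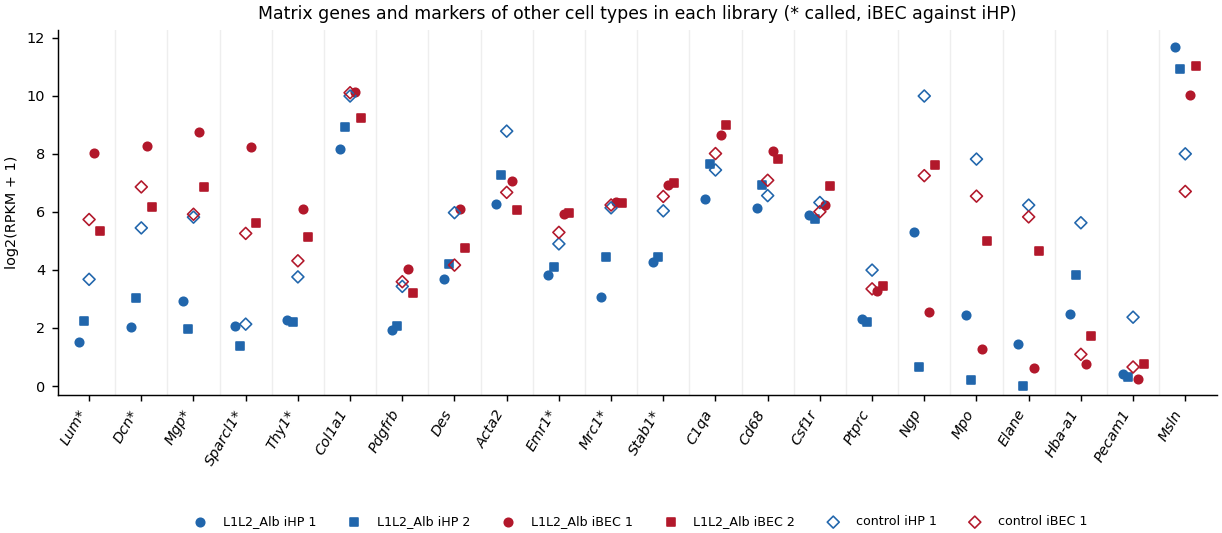
Level of 22 matrix genes and markers of other cell types in log2(RPKM + 1) in each L1L2_Alb iHP library (blue) and iBEC library (red), filled circles for replicate 1 and squares for replicate 2, with the control libraries as open diamonds and called genes with an asterisk. *Lum*, *Dcn*, *Mgp* and *Sparcl1* are highest in iBEC replicate 1, *Emr1* and *Stab1* are alike in both iBEC libraries, and *Ngp*, *Mpo* and *Elane* differ most between replicates.

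Cell cycle genes had higher values in iBECs without a call. Of 40 tested genes of mitosis 38 had a higher mean (median 0.92, in the control libraries −0.08) and of 42 of DNA replication 40 (median 0.56, in the control libraries −0.29), and 0 were called in either list by limma, with 24 and 14 at an unadjusted p under 0.05. Over all 13234 genes tested, 2512 had an unadjusted p under 0.05 from limma, the background for each such count. *Mki67*, a marker of cycling cells, was at 2.94 and 0.78 RPKM in iHPs and 4.25 and 4.74 RPKM in iBECs (1.05, adjusted p = 0.241). *Cdkn1a*, the p53 target that encodes p21, was at 226 and 300 against 281 and 297 RPKM (0.15, adjusted p = 0.859), and of 29 tested genes of the p53 pathway 0 were called, with 8 at an unadjusted p under 0.05. The lists for glycolysis and hypoxia, the respiratory chain, the unfolded protein response and ribosomal proteins also held 0 calls by limma, with 6, 1, 2 and 0 genes at an unadjusted p under 0.05. All 32 ribosomal and all 41 respiratory chain genes were lower in iHP replicate 1 than in iHP replicate 2, by medians of 0.69 and 0.58, so the iHP libraries differed from each other in these housekeeping genes more than iHPs differed from iBECs (medians 0.13 and 0.11).

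Few calls fell in the other lists. *Scd1* and *Dhcr7* of cholesterol and fatty acid synthesis (1.79 and 1.61), *Psmb9* of the immunoproteasome (1.81), the chemokine *Cxcl14* (2.67), *Gsta4* of glutathione conjugation (1.52), *Dmkn* of the mesothelial list (2.00), *Egr1* of the SRF targets (3.05), *Itga7* of the integrins (1.42) and *Hfe2*, hemojuvelin (2.43), were higher in iBECs. *Fhl1*, of the SRF targets, was lower (−1.40). In all, 97 of the 412 genes called higher and 10 of the 61 called lower belonged to any of the 37 lists, which held 951 of the tested genes.

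**Figure D5:**
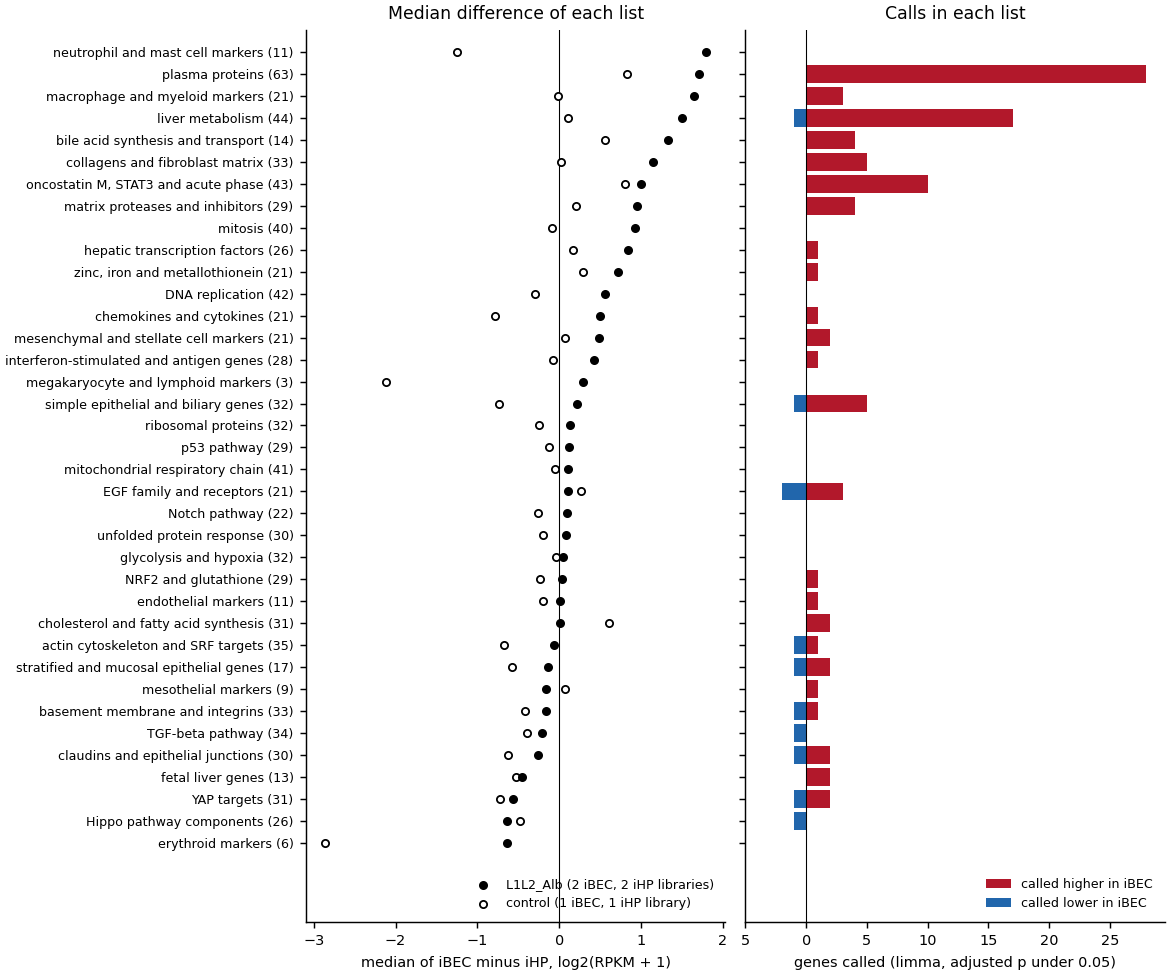
For each of the 37 gene lists, with the number of tested genes in brackets, the median difference iBEC minus iHP on the log2(RPKM + 1) scale in L1L2_Alb (filled) and control libraries (open) at the left, and the number of genes called higher (red, to the right) or lower (blue, to the left) at the right. Plasma proteins hold 28 calls and liver metabolism 18, and mitosis and DNA replication have medians above 0 in L1L2_Alb libraries with 0 calls.

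The same contrast in control cells had 1 library on each side and could not be tested alone. Of the 412 genes called higher, 312 differed in the same direction in control cells (median 0.69 against 2.16 in L1L2_Alb) and 98 in the opposite one, and of the 61 called lower, 58 in the same and 3 in the opposite direction (median −1.25 against −1.80). Control iBEC was above control iHP for 3994 of all 13234 genes tested, and the median of all was −0.24 in control cells. Set beside the controls, both L1L2_Alb iHP libraries were below control iHP for 369 of the 412 genes, as for 4547 of all 13234, while both L1L2_Alb iBEC libraries were above control iBEC for 154 and below it for 191, against 8391 and 1896 of all 13234. For the 61 genes called lower, both iHP libraries were above control iHP for 60, against 4831 of all genes, and both iBEC libraries above control iBEC for 56, against the 8391. These genes were chosen by the L1L2_Alb iHP and iBEC values, so these counts are a description.

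A test of the difference itself, L1L2_Alb iBEC minus iHP against control iBEC minus iHP, called 0 of 13326 genes (0.0%) by limma at an adjusted p under 0.05, with 989 at an unadjusted p under 0.05 and a smallest adjusted p of 0.082. It rests on 1 control library of each condition and on the spread between the L1L2_Alb libraries, with which the lone control libraries are assumed to vary alike. The 6 genes at the smallest adjusted p, singled out after their values were seen, were *Sftpd*, *Cgn*, *Prap1*, *Pogz*, *Fgfbp1* and *Mir223*. *Cgn*, cingulin of tight junctions, was at 614 RPKM in control iHP and 8.94 RPKM in control iBEC, and at 105 and 84.4 against 43.5 and 48.2 RPKM in L1L2_Alb cells. *Apoc3*, the largest increase, had a difference between genotypes of 5.69 (standard error 0.689, adjusted p = 0.0978) and *Mmp7* one of 4.18 (adjusted p = 0.115). For *Alb* it was 1.98 (adjusted p = 0.633), so its difference of 2.97 in L1L2_Alb cells was not shown to differ from that of 1.00 in control cells.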

How the data were processed

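Gene lists, their members and tests were chosen with earlier results of these data known. The 4 libraries were all those of the 2 labelled conditions. The values were used as the authors deposited them, in RPKM, in a single table of genes by libraries that showed no further scaling. That unit was read from the table itself, and the submitters' processing notes name Bowtie 0.12.2 and the genome mm8, while counting method and annotation are not given in the sources used here. Of 23471 entries, 4 with repeated symbols were left out. Library depth, recovered from the RPKM steps of genes under 400 bases, was 18436865 and 21308633 reads for iHPs and 25881133 and 23841792 reads for iBECs, and 90.5% to 91.8% of the values of such genes in these libraries came out within 0.01 of a whole read. Floors of 3 reads cover counting error only.

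Values were converted to log2(RPKM + 1), with a pseudocount of 1, and modelled on the 4 L1L2_Alb libraries by lmFit and a trended eBayes of limma 3.58.1 (R 4.3.3). P-values were two-sided and adjusted over all 13234 genes averaging 1 RPKM or more by the Benjamini-Hochberg method, with a threshold of 0.05, and every adjusted p is from limma. The difference between genotypes was fitted on these 4 and 2 control libraries in the same way. Lists are described by counts and medians. Genes named were the 15 largest increases and 15 largest decreases among calls, 38 fixed genes, up to 5 calls per list and markers of other cell types, and those chosen after their values were seen are given as such. The fits were tested on simulated data before use. A count model was not run. Tables and figures were made with Python 3.11.15, numpy 2.4.6, pandas 2.3.3 and matplotlib 3.10.9. Alternatives were a pseudocount of 0.1, no filter, a mean of at least 5 RPKM, upper-quartile scaling, quantile normalization, eBayes without trend, each library left out, a replicate block, a change of at least 2-fold and an adjusted p under 0.1. The iHB libraries entered no test, and their values are given for single genes and in counts of genes nearer to iHPs.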

Additional observations from a re-analysis of the deposited data

Results flagged for a closer look

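For 5 of the genes named with their difference whose L1L2_Alb iHP and iBEC libraries did not overlap, the L1L2_Alb libraries went one way and the control libraries the other, by at least 1 on the log2(RPKM + 1) scale on each side. The difference between genotypes did not pass limma's test for any of them, and it rests on 1 control library per condition. *Cps1* was higher in L1L2_Alb iBECs by 3.45 and lower in control iBEC by −1.46, a difference between genotypes of 4.92 (adjusted p = 0.292). For *Slc10a1* the values were 2.19 and −1.05, a difference of 3.24 (adjusted p = 0.207). *Des*, desmin of stellate and muscle cells, gave 1.48 and −1.81, a difference of 3.29 (adjusted p = 0.331). *Sftpd*, surfactant protein D, had 17.5 RPKM in control iHP and 0.25 RPKM in control iBEC against 1.19 and 1.38 RPKM in L1L2_Alb iHPs and 4.95 and 6.14 RPKM in L1L2_Alb iBECs, a difference of 5.40 (adjusted p = 0.082). *Mir223*, the locus of a microRNA of myeloid cells, was at 77.9 RPKM in control iHP and 6.29 RPKM in control iBEC against 7.89 and 6.40 RPKM in L1L2_Alb iHPs and 18.62 and 14.49 RPKM in L1L2_Alb iBECs, a difference of 4.54 (adjusted p = 0.082). In the control libraries neutrophil genes went the way of *Mir223*, with *Mpo*, *Elane* and *Ngp* together at 1316 RPKM in control iHP and 299 RPKM in control iBEC. In the L1L2_Alb libraries the same sum was 44.7 and 0.73 RPKM in iHPs and 6.80 and 250 RPKM in iBECs, with the groups overlapping. The part of neutrophil genes in this difference was not tested. *Ngp* (2.10 and −2.74) and *Mpo* (1.79 and −1.28), whose L1L2_Alb libraries overlapped, and *Upk3b* (1.02 and −1.75) and *Tpbpb* (4.49 and −3.995), given elsewhere only by level, also went opposite ways.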

How the results depend on the processing

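Against 473 genes called, 0 were called with no filter on low values, 0 to 270 with 1 library left out (0 without iHP replicate 2, 270 without iBEC replicate 2, of which 193 were among the 473) and 957 at an adjusted p under 0.1. With 1 library left out, the lone library is assumed to vary like the other condition. A pseudocount of 0.1, a mean of at least 5 RPKM, upper-quartile scaling, quantile normalization and eBayes without trend called 394 to 577, and 87.1% of calls were higher in iBECs, against 89.8% under upper-quartile scaling and 80.0% under quantile normalization. No call changed direction under any setting. With a replicate block 906 genes were called (706 higher, 200 lower), but the deviations of same-numbered libraries had a correlation of −0.02 over genes, so the numbers are not shown to pair the samples. Upper-quartile scaling moved the median of all genes from −0.02 to 0.09 and quantile normalization to −0.09. Relative to that median, the lists for glycolysis and hypoxia (0.07 to −0.01), endothelial markers (0.03 to −0.23) and the actin cytoskeleton (−0.05 to 0.07) changed sign under quantile normalization, and endothelial markers also under upper-quartile scaling (−0.01). The test between genotypes called 0 to 1 gene with 1 library left out (*Tpbpb*, a trophoblast gene named after its values were seen, without iBEC replicate 2, in which it was at 346 RPKM in iBEC replicate 1) and 8 at an adjusted p under 0.1. Among uncalled genes named, *Socs3* changed sign under upper-quartile scaling (0.051) and quantile normalization (0.056), and with 1 library left out differences changed sign for *Socs3* (−0.25 to 0.10), *Lats1* (−1.14 to 0.41), *Osmr* (−0.063 to 0.58), *Cdkn1a* (−0.055 to 0.35), *Acta2* (−0.72 to 0.29) and *Ngp* (−0.43 to 4.64). The cause was not tested. Depth limits the lowest genes, such as *Cyp7a1*.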
